A study of Gallus gallus with 12 samples.

Results

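Lateral tissue was compared between 2 ways of cutting it from the chick (Gallus gallus) embryo, across 6 of the 12 RNA sequencing libraries of the series. The lateral libraries hold the ectoderm and mesoderm that lie beside the mature Organiser (the node), within the stem zones that lengthen the axis. For 3 embryos the tissue was taken by hand from live embryos, and for 3 other embryos with a laser (laser capture microdissection, LCM) out of paraffin sections after fixation in modified methacarn. The members are all lateral libraries of the labels, and genes entered the comparison where their mean count over these 6 libraries was 10 or more, which kept 9869 of 13106 genes.

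In both methods the Organiser cells had been marked with a fluorescent label as gastrulation ended, and the embryos had then been left to develop. Embryo 1 of each method had 8 somites and embryos 2 and 3 had 9. The labels give no genotype, strain or drug treatment, and each library is a single embryo, with no pooling stated. Since different embryos went to each method, live against fixed tissue, dissection tool and embryo cannot be told apart. The question was which neighbouring tissues, mesoderm, ectoderm or endoderm, each dissection took in.

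At this stage the tissue beside the node is layered. Neural plate and epiblast lie on top, presomitic mesoderm emerges beneath them, and a sheet of endoderm forms the underside. The epiblast around the node includes the caudal stem zone, in which Wnt and FGF ligands, caudal-type (CDX) factors and brachyury are active and cells feed both spinal cord and paraxial mesoderm. The endoderm is known for transport proteins such as retinol-binding protein and transthyretin, and for GATA factors.

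Total counts were 21139477, 24273450 and 25972879 in LCM embryos 1 to 3 and 30997461, 23446535 and 22526506 in manual embryos 1 to 3. Genes with at least 1 count numbered 7235, 7377 and 9210 in the LCM libraries and 11497, 8983 and 8378 in the manual libraries, so manual embryo 1 lay above all others and LCM embryo 3 lay inside the manual range. Manual embryo 1 stood apart in a second way. It alone held 342 genes with 100 or more counts there and at most 3 in each other lateral library, against 21 to 38 such genes for each of the other 5 libraries. A W-linked gene, ENSGALG00000005785, had 4911 counts in manual embryo 1 and 2 to 9 in the others, and the W chromosome is carried by female birds only.

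No gene passed the main test. With edgeR's quasi-likelihood test and Benjamini-Hochberg adjustment, 0 of 9869 genes (0%) had an adjusted p below 0.05, and 1066 (10.8%) had an unadjusted p below 0.05. Of these, 272 (2.76%) were higher in LCM tissue and 794 (8.05%) lower. The spread between embryos was large, with a common biological coefficient of variation of 151%. DESeq2 called 141 genes higher (1.43%) and 420 lower (4.26%), and limma voom called 4 higher (0.0405%) and 44 lower (0.446%). The 3 higher genes called by both were EIF4G2, MT-ND1 and YBX1, and 36 lower genes were called by both. Without manual embryo 1 edgeR called 24 genes higher and 4 lower, so the balance of calls turned with that library. It called 0 higher and 35 lower without manual embryo 2, and 0 higher and 36 lower without manual embryo 3.

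Other counts describe the genes without a test. All 3 LCM values lay above all 3 manual values for 669 genes (6.78%), and all 3 lay below for 1130 (11.4%). All 3 LCM libraries had 0 counts for 834 of the genes tested (8.45%), and all 3 manual libraries for 72 (0.73%). Such genes passed the filter through the counts of the other method alone. Manual embryo 1 by itself held 342 genes with 100 or more counts there and at most 3 in each other library. These 0 counts are therefore a description only, and they were not recounted without that library. The median log2 fold change (LCM minus manual, here and below) of all genes was -0.22, and 0.23 without manual embryo 1, over the 9108 genes that then passed the filter. Since these are bulk samples, fewer cells of a type and less RNA per cell cannot be told apart. Levels are CPM, counts scaled to a common library size with TMM factors, and coordinates are those of the authors' table, which names no genome build.

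**Figure D1:**
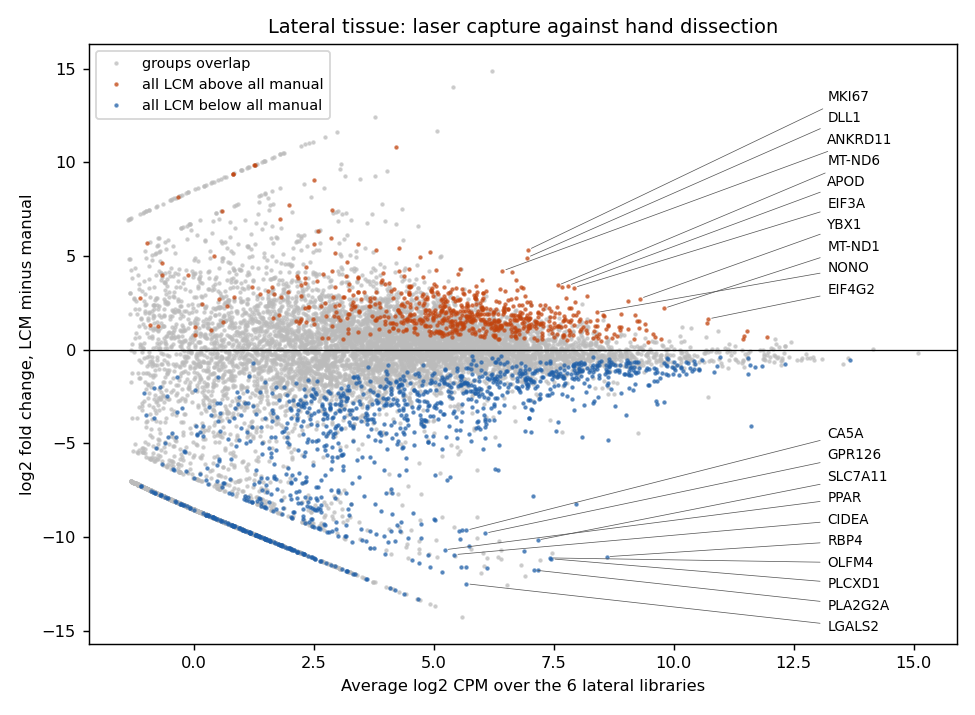
Each point is 1 of the 9869 genes tested, with average log2 CPM over the 6 lateral libraries on the x axis and the log2 fold change (LCM minus manual) on the y axis. Colour shows whether the 3 LCM values all lie above (669 genes) or all below (1130 genes) the 3 manual values, the labels name the leading genes, and the diagonal lines of points are genes with 0 counts in all libraries of 1 method.

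Endoderm markers mostly had negative log2 fold changes, and none passed the test. Of 36 genes listed, 28 were in the table and 19 passed the filter on low counts. Only 12 passed without manual embryo 1, so part of the list was tested through the counts of that library, and the values over the list are a description. Of the 19, 17 had a negative log2 fold change and 0 were called. In 6 of them all 3 LCM values lay below all 3 manual values, against 11.4% of all genes, and in 0 they lay above, against 6.78%. The median log2 fold change of the 19 was -8.92, or -5.02 with genes at 0 in all LCM libraries set at their bound, against -0.22 for all genes. Without manual embryo 1 the median was -1.51, over the 12 genes that then passed.

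RBP4, the carrier of retinol in blood and yolk sac (chromosome 6, 19941320 to 19946482), had 9, 13 and 5 counts in LCM embryos 1 to 3 and 67711, 2758 and 232 in manual embryos 1 to 3. Every manual library lay far above every LCM library, and the manual libraries themselves spanned a wide range. Its log2 fold change was -11.05 ± 1.84 (SE), with an adjusted p of 0.101 in edgeR. Without manual embryo 1 it was -7.49 ± 1.85 (edgeR adjusted p = 0.146). TTR, which encodes the thyroid hormone and retinol transport protein transthyretin, had 1, 0 and 0 counts against 4485, 76 and 114, again with no overlap. Its log2 fold change was -11.37 ± 2.55 (edgeR adjusted p = 0.16), and -7.75 ± 4.14 without manual embryo 1 (edgeR adjusted p = 0.514).

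CTSL2, a lysosomal cathepsin, was counted in all libraries, with 9200, 7778 and 9979 counts in LCM embryos and 468090, 23808 and 31803 in manual embryos. Here too the groups did not overlap, and the log2 fold change was -4.07 ± 0.86 (edgeR adjusted p = 0.138). The log2 fold change without manual embryo 1 was -1.85 ± 0.33 (edgeR adjusted p = 0.0479). This gene carries most of the list's summed level in manual embryo 1. Summed over the list, the level was 1033 to 1500 CPM in LCM libraries and 18748, 2843 and 2499 CPM in manual embryos 1 to 3, with no overlap. Without CTSL2, a choice made after the values were seen, the sums were 731 to 1040 CPM against 3716, 1655 and 912 CPM. Manual embryo 3 then fell inside the LCM range.

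The factor GATA6, which acts in endoderm and heart mesoderm, had 0 counts in all LCM libraries and 504, 12 and 14 in manual libraries, at least 49.3-fold lower on average in LCM tissue against a floor of 3 counts per library. That bound was 5.49-fold without manual embryo 1, a check chosen after the values were seen. APOB, the lipoprotein scaffold, had 0, 0 and 0 counts against 326, 11 and 9, and FGA, the fibrinogen alpha chain, 0, 1 and 0 against 158, 38 and 31. In all 3 genes manual embryo 1 was highest, and the other manual libraries held 9 to 38 counts.

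Other members were counted mainly in manual embryo 1. FGG, the fibrinogen gamma chain, had 4879, 1 and 0 counts in manual embryos 1 to 3 and 0 in each LCM library. FGB had 1859, 0 and 4 against 0, and GATA4, another GATA factor, 668, 0 and 0 against 0. APOA1, the main high-density lipoprotein protein, had 3700, 258 and 1 against 1, 0 and 0. For FGG, FGB and GATA4 manual embryos 2 and 3 were largely at the level of the LCM libraries. For APOA1 this held for manual embryo 3 only, since manual embryo 2 had 258 counts.

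Several markers did not follow this order. TF, which encodes transferrin, had 127, 3548 and 1171 counts in LCM embryos and 16405, 897 and 986 in manual embryos, with overlap. EPCAM, an adhesion molecule of epithelia, had 255, 4513 and 3131 against 2643, 4847 and 4531. ALB, which encodes albumin, had 275 counts in LCM embryo 3 and 0 to 3 in the other 5 libraries. HHEX and GATA5, both endoderm factors, had 0 counts in all 6 libraries.

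With DESeq2, 3 of the 19 genes (RBP4, APOA1 and FGA) were called lower, against 4.26% of all genes, and with limma voom 0 were. Leaving out manual embryo 2 or 3 gave edgeR calls for RBP4 and CTSL2, and leaving out manual embryo 1 left CTSL2 as the list's 1 call.

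**Figure D2:**
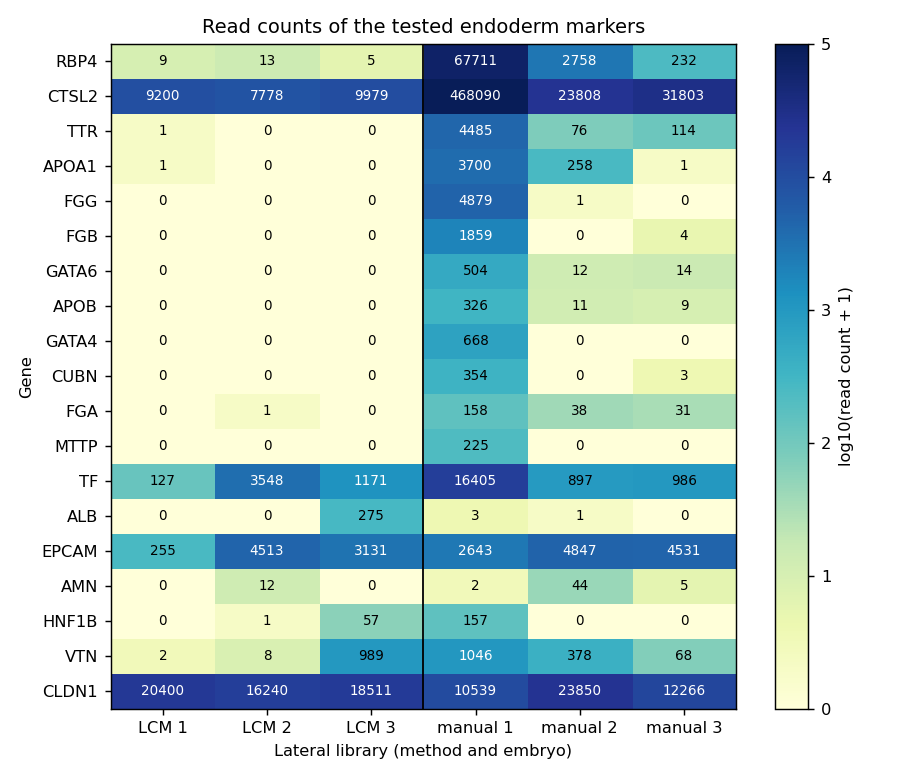
Read counts of the 19 tested endoderm markers (rows, ordered by p) in the 6 lateral libraries (columns), coloured by log10(count + 1) with the count printed in each cell. RBP4, TTR, GATA6, APOB, FGA and CTSL2 have fewer counts in every LCM library than in any manual library, while ALB, TF, EPCAM and VTN do not.

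Markers of presomitic and paraxial mesoderm differed in both directions. Of 22 genes listed, 9 passed the filter, 5 with a positive and 4 with a negative log2 fold change, with a median of 0.00 against -0.22 for all genes and 0 called. The median ranged from -1.25 to 1.45 when 1 embryo was left out. DLL1, the Notch ligand of the presomitic mesoderm and of nascent neurons (chromosome 3, 40170700 to 40178161), had 10355, 1011 and 5217 counts in LCM embryos and 409, 158 and 53 in manual embryos. Its groups did not overlap, and its log2 fold change was 4.91 ± 1.07 (edgeR adjusted p = 0.157).

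MSGN1, a bHLH factor of the presomitic mesoderm, had 0, 0 and 342 counts against 651, 387 and 671, so every manual library lay above the LCM libraries. Its log2 fold change was -2.83 ± 2.41. TBX6, the T-box factor that directs cells to paraxial mesoderm, had 2931, 0 and 184 counts against 1629, 909 and 1087. LCM embryo 1 had the most TBX6 and LCM embryo 2 none, with the manual libraries between, and the fold change was 0.00 ± 1.73.

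LFNG, the glycosyltransferase that modifies Notch, had 490, 382 and 1025 counts against 273, 359 and 525. SNAI2, a repressor active in mesoderm and neural crest that leave an epithelium, had 1283, 1827 and 2097 against 2690, 1603 and 3299, which on the CPM scale put every LCM library below the manual ones. ALDH1A2, the enzyme that makes retinoic acid in the somites, had 0, 1 and 0 counts against 1086, 0 and 28, and MESP2, a factor of the forming somite border, had 280 counts in LCM embryo 1 and 0 in the other 5. Summed over the list, LCM libraries had 823, 125 and 294 CPM and manual libraries 285, 176 and 285 CPM, so the manual values lay within the LCM range.

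Intermediate and lateral plate mesoderm markers were scarce in every library. Of 22 genes listed, 16 were in the table, and OSR1, LHX1 and FOXF1, which define these tissues, had 0 counts in all 6 libraries. Of the 9 tested members, 4 had a positive and 5 a negative log2 fold change, and 0 were called. GATA4 and GATA6, both negative, are also in the endoderm list. The median log2 fold change was -8.65, or -4.08 with all-zero groups at their bound. It was 1.88 without manual embryo 1, over the 6 genes that then passed the filter. OSR2, known in intermediate mesoderm, had 208, 111 and 0 counts in manual embryos and 0 in LCM embryos. Summed levels were 3.42 to 11.8 CPM in LCM libraries and 66.1, 14.0 and 1.45 CPM in manual libraries, and the groups overlapped.

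Neural plate markers leaned to higher values in LCM tissue. Of 21 genes listed, 10 passed the filter, of which 9 had a positive log2 fold change, with a median of 1.42 against -0.22 for all genes. In 4 of the 10 every LCM value lay above every manual value, against 6.78% of all genes, and in 0 below, against 11.4%. edgeR called 0 of the 10. LIN28B, an RNA-binding protein of early progenitors, had 4742, 5124 and 6316 counts in LCM embryos and 1370, 1144 and 2423 in manual embryos (log2 fold change 1.49 ± 0.62).

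CDH2, the cadherin of neural plate and mesoderm, had 3453, 3923 and 7274 counts against 2648, 1142 and 1468. NCAM1, the neural cell adhesion molecule, had 1764, 2173 and 4857 against 1795, 581 and 1243. In both genes the groups did not overlap once scaled to CPM, although the raw NCAM1 count of manual embryo 1 exceeds that of LCM embryo 1.

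SOX2, the best known factor of neural progenitors, was low throughout, with 137, 3 and 0 counts against 41, 2 and 0. PAX6, written PAX-6 in the table, had 0, 83 and 466 counts against 150, 174 and 1. NKX1-2, a homeobox factor of the caudal neural plate, had 22, 334 and 380 against 40, 130 and 42. FABP7, a lipid-binding protein of neural progenitors, dominated the list's sum, with 17252, 32878 and 76210 counts against 7891, 33099 and 63392, and it did not separate the methods (log2 fold change -0.20 ± 0.68). Summed levels were 1419, 1825 and 2940 CPM in LCM libraries and 457, 1850 and 3445 CPM in manual libraries, with overlap.

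Neural crest and dorsal neural tube markers had no common direction. Of the 9 tested, 4 were positive and 5 negative, and their median log2 fold change was -0.75, or 1.26 over the 9 genes that passed the filter without manual embryo 1. PAX7, written PAX-7, had 284, 118 and 743 counts in LCM embryos and 68, 1 and 0 in manual embryos, with no overlap. PAX3, its relative in dorsal neural tube and somite, had 280, 6002 and 2531 against 207, 678 and 1303, with overlap. BMP7, a dorsal signal, had 3063, 55 and 533 against 216, 103 and 245, and CDH6, a cadherin of early neural crest, had 13, 1 and 5 against 9, 242 and 0.

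Surface ectoderm markers were also mixed, with 7 of 13 tested members positive, 6 negative and a median log2 fold change of 0.04, which ranged from -0.71 to 0.23 when 1 embryo was left out. CYP26A1, which the list shares with the caudal stem zone list and whose counts are given there, was the 1 member with every LCM value above every manual value, against 6.78% of all genes. In 3 of the 13 every LCM value lay below every manual value, against 11.4% of all genes. edgeR called 0 of the 13, and DESeq2 called GRHL3 and EPAS1 lower, against 4.26% of all genes. GRHL3, a grainyhead factor of surface ectoderm and the neural fold edge, had 1, 26 and 0 counts in LCM embryos and 184, 1288 and 427 in manual embryos. All manual libraries lay above all LCM libraries, and the log2 fold change was -6.44 ± 2.41 (edgeR adjusted p = 0.443). EPAS1, a hypoxia-responsive factor, had 0 counts in LCM embryos and 1988, 165 and 2 in manual embryos, at least 203.5-fold lower in LCM tissue, or 35.2-fold without manual embryo 1. Manual embryo 3, with 2 counts, lay below the floor of 3 counts.

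TFAP2A, a defining factor of non-neural ectoderm, had 548 counts in LCM embryo 3, 53 in manual embryo 1 and 0 or 1 in the others. TFAP2C, its relative, had 7, 0 and 288 counts against 209, 496 and 172. DLX6 had 0 counts in all libraries, and TP63, the keratinocyte lineage factor, had 0 in LCM embryos and 11, 0 and 19 in manual embryos. KRT19, an epithelial keratin, had 1363, 1937 and 1209 against 2376, 1824 and 2314, lower in every LCM library on the CPM scale. The summed levels, 1099 to 1375 CPM and 1209 to 1752 CPM, overlapped.

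**Figure D3:**
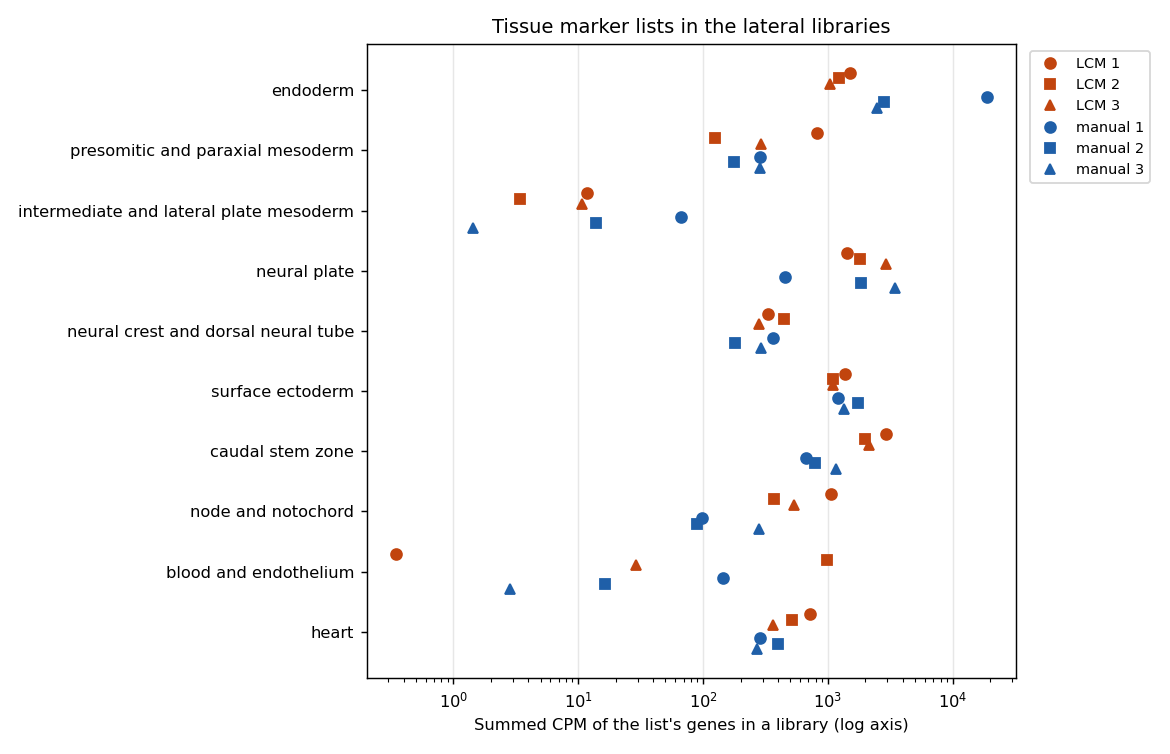
Summed CPM of each tissue marker list (rows) in the 6 lateral libraries, on a log axis, with LCM embryos in orange, manual embryos in blue and a symbol for each embryo number. The 3 LCM libraries lie below the 3 manual libraries for the endoderm list, and above them for the caudal stem zone list and the node and notochord list, which shares T and FGF8 with it.

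Caudal stem zone genes leaned to higher values in LCM tissue. Of 22 genes listed, 17 passed the filter and 14 of these had a positive log2 fold change, with a median of 1.36 against -0.22 for all genes. In 6 of 17 every LCM value lay above every manual value, against 6.78% of all genes, and in 1 (MSGN1) below, against 11.4%. edgeR called 0 of the 17, and 7 had an unadjusted p below 0.05, all higher in LCM tissue, against 2.76% of all genes, while DESeq2 called FGF8 and EVX1 higher, against 1.43% of all genes. Summed levels were 2949, 1999 and 2126 CPM in LCM embryos and 674, 795 and 1154 CPM in manual embryos.

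FGF8, the FGF ligand that keeps the stem zone undifferentiated, had 1817, 2177 and 3935 counts in LCM embryos and 328, 711 and 462 in manual embryos. No manual library reached the LCM range, and the log2 fold change was 2.08 ± 0.86 (edgeR adjusted p = 0.443). WNT5A, a Wnt ligand of the caudal end, had 2576, 2787 and 4388 counts against 306, 617 and 1026, again apart. WNT8C, another Wnt ligand, had 1080, 57 and 1067 against 117, 67 and 62, where LCM embryo 2 lay with the manual libraries. WNT3A, the Wnt ligand best known from this region, had 1678, 3547 and 2472 against 6481, 872 and 765, and manual embryo 1 was highest.

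Among the factors, T, the chick brachyury gene (TBXT) of streak and stem zone, had 18038, 3924 and 10982 counts in LCM embryos and 1753, 526 and 3495 in manual embryos. On the CPM scale LCM embryo 2 fell below manual embryo 3, so the groups overlapped, and the log2 fold change was 2.43 ± 0.81 (edgeR adjusted p = 0.423). EVX1, a homeobox factor of the posterior streak, had 3038, 1680 and 814 counts against 219, 157 and 189, and CDXB, a caudal-type factor, 5456, 8035 and 7554 against 2153, 1989 and 3353. Both genes were apart in all libraries, with log2 fold changes of 3.30 ± 1.08 and 1.26 ± 0.55.

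GREB1, a co-regulator listed here as a caudal gene, had 16414, 28430 and 33379 counts against 6145, 9083 and 9621, with a log2 fold change of 1.36 ± 0.43 (edgeR adjusted p = 0.372). CYP26A1, the enzyme that breaks down retinoic acid, had 1232, 1289 and 2182 against 27, 6 and 292. For both genes every LCM library was above every manual library. On the other side, NOTUM, a secreted Wnt inhibitor, had 0, 0 and 5 counts against 260, 284 and 1, and CDX1 had 427 counts in manual embryo 1 and 0 to 2 elsewhere.

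HOX genes, whose paralogue groups mark position from head to tail, also leaned to LCM tissue. All 10 tested members of groups 1 to 5 and 8 of 9 tested members of groups 6 to 9 had positive log2 fold changes, with medians of 1.48 and 1.02. Without overlap and higher in LCM tissue were 3 of 10 and 1 of 9 (6.78% of all genes). HOXA3 had 846, 488 and 738 counts in LCM embryos and 63, 17 and 70 in manual embryos, and HOXA4 106, 489 and 305 against 14, 39 and 72. HOXA9 had 3, 1368 and 1994 counts against 50, 67 and 80, so LCM embryo 1 lay below the manual libraries and LCM embryos 2 and 3 above.

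The most abundant members did not separate the methods. HOXA7 had 25129, 82213 and 79069 counts against 19048, 79790 and 42267, and HOXB4 5893, 10889 and 11357 against 3405, 13653 and 5138. Of groups 10 to 13, 2 genes were in the table and neither passed the filter. Embryo 1 of either method, the embryo with 8 somites, had lower HOXA7 than the other embryos of its method. Not all members followed this order. HOXA3 was highest in embryo 1 among the LCM libraries. HOXB3 was highest in embryo 1 among the manual libraries, with 3576, 620 and 208 counts. The part of stage was not tested.

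**Figure D4:**
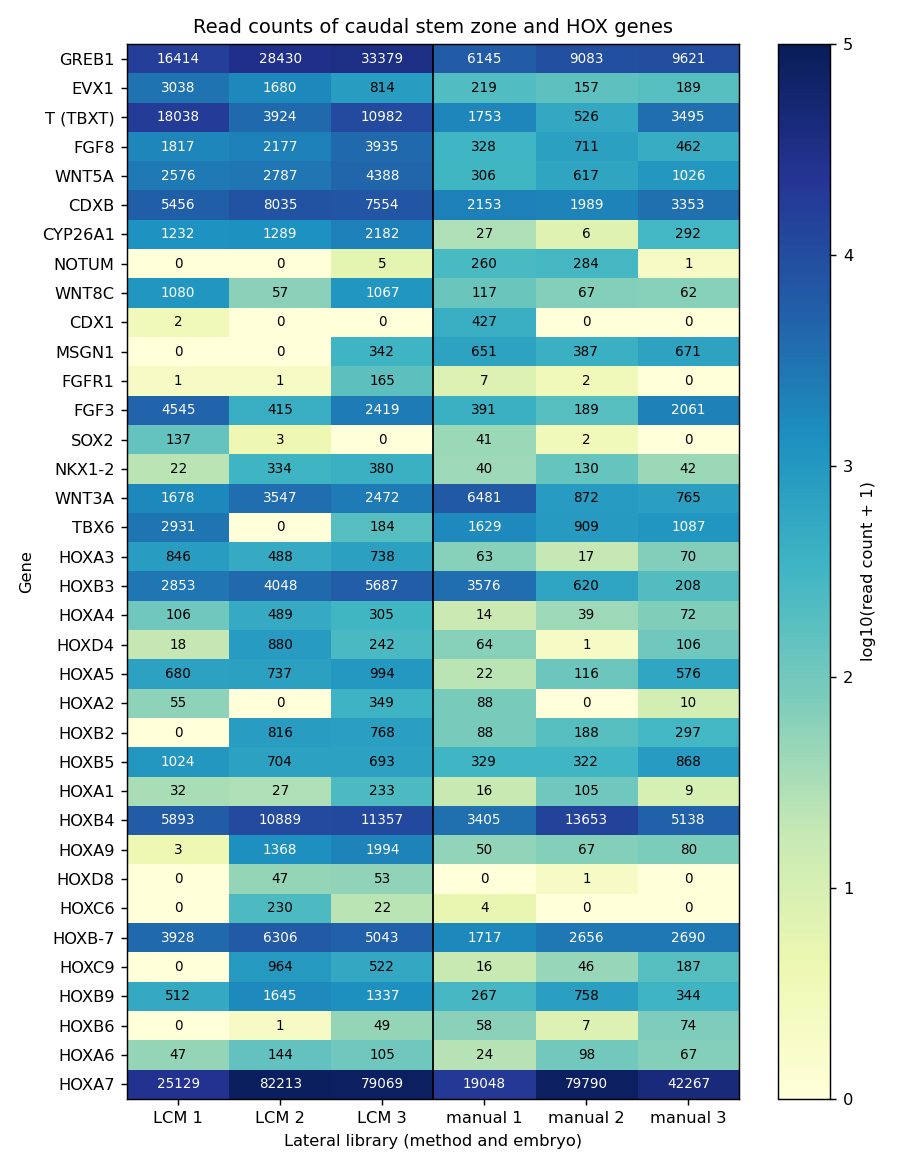
Read counts of the tested caudal stem zone genes and, below them, of HOX groups 1 to 5 and 6 to 9 (rows, ordered by p within a list) in the 6 lateral libraries (columns), coloured by log10(count + 1). GREB1, EVX1, FGF8, WNT5A, CDXB and CYP26A1 have more counts in every LCM library than in any manual library, while HOXB4 and HOXA7 overlap.

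Node, blood, heart and germ cell markers were looked up because neighbouring tissue could be included. CHRD and SHH, which define node and notochord, had 0 or 1 counts in LCM lateral libraries and 10, 0 and 0 and 2, 0 and 0 in manual ones, and NOG had 0, 0 and 16 against 18, 0 and 0. GNOT1, a notochord homeobox gene, had 1251, 882 and 2682 counts against 368, 548 and 1696 (log2 fold change 0.52 ± 0.99). Of the 7 tested members of this list, 5 were positive and 2 negative (median 0.52), and edgeR called 0. In 1 of the 7 (FGF8) all LCM values lay above all manual values, against 6.78% of all genes. Summed levels were 1056, 372 and 536 CPM in LCM embryos and 98.6, 89.8 and 282 CPM in manual embryos, with no overlap. The list shares T and FGF8 with the caudal stem zone list.

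Globin counts came almost wholly from LCM embryo 2. HBAA had 11672 counts and HBG1 6608 there, and both had 0 in the other 5. HBAD had 2541 counts there, 2 in manual embryo 1 and 1 in manual embryo 3. HBE had 3144 there, 2 in LCM embryo 1, 61 in manual embryo 1 and 1 in manual embryo 3. The 11 tested blood and endothelium markers had a median log2 fold change of 3.23, and -1.275 without LCM embryo 2, over the 8 genes that then passed the filter. KDR, the endothelial receptor, had 248 counts in LCM embryo 3 and 0 to 21 elsewhere, and SPI1, a myeloid factor, had 3798 and 157 in manual embryos 1 and 2 and 0 or 1 elsewhere.

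Of 11 heart genes tested, 4 had positive and 7 negative log2 fold changes, with a median of -0.42 that ranged from -1.59 to 0.21 when 1 embryo was left out. In 1 of the 11 (MYL4) every LCM value lay above every manual value, against 6.78% of all genes, and in 0 below, against 11.4%. MYL4 had 110, 148 and 127 CPM in LCM embryos and 73.0, 95.7 and 35.1 CPM in manual embryos. NKX2-5 had 0 counts in all libraries and TNNT2 had 110, in manual embryo 1 alone. TNNC1, a troponin, had 11104, 7785 and 6034 counts against 3734, 4816 and 3688, and on the CPM scale the groups overlapped. Of 8 germ cell and early pluripotent genes tested, 3 had positive and 5 negative log2 fold changes, with a median of -0.49. In 1 of the 8 (SALL4) every LCM value lay above every manual value, against 6.78% of all genes, and in 0 below, against 11.4%. SALL4 had 9416, 12307 and 14102 counts in LCM embryos and 7668, 1707 and 2825 in manual embryos (log2 fold change 1.53 ± 0.51). NANOG, a pluripotency and germ cell factor, had 0, 1 and 4 counts against 12153, 505 and 1 (log2 fold change -11.13 ± 2.59, edgeR adjusted p = 0.18), and -7.52 ± 3.85 without manual embryo 1 (edgeR adjusted p = 0.514). The germ cell gene DDX4 had 97 counts, all in manual embryo 1. The part of such cells in the differences above was not tested.

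Genes of the cell cycle were higher on the LCM side in 30 of 35 tested members, with a median log2 fold change of 0.68. In 6 of 35 the groups did not overlap and LCM was higher (6.78% of all genes), and in 0 it was lower (11.4% of all genes). MKI67, the proliferation antigen, had 2335, 9372 and 8501 counts against 439, 34 and 48, and CENPF, a kinetochore protein, 4244, 4535 and 6573 against 939, 169 and 130. Their log2 fold changes were 5.32 ± 1.02 and 3.69 ± 0.82 (edgeR adjusted p = 0.109 and 0.159), and MKI67 was called without manual embryo 1 (7.04 ± 0.88, edgeR adjusted p = 0.0119). PLK1, a mitotic kinase, had 11006, 8907 and 7598 against 3140, 2370 and 1764, and CENPE, a kinetochore motor, 4091, 5067 and 5519 against 927, 44 and 6. All 4 genes were apart in every library, whereas RFC3 and AURKA had negative fold changes. DESeq2 called MKI67, CENPF and PLK1 higher, against 1.43% of all genes.

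Transcripts of the mitochondrial genome had positive log2 fold changes in 21 of 24 tested genes, with a median of 1.37, and in 14 of 24 every LCM value lay above every manual value, against 6.78% of all genes. They made up 3.08% to 3.2% of raw counts in LCM libraries and 1.36% to 2.23% in manual libraries. On the CPM scale their sums overlapped. These were 33851, 28661 and 24180 CPM in LCM embryos 1 to 3 and 19744, 15944 and 25045 CPM in manual embryos 1 to 3. MT-ND1 and MT-ND6, both subunits of respiratory complex I, had the smallest p among these transcripts. MT-ND1 had 27121, 38095 and 52532 counts against 10679, 4554 and 7631, and MT-ND6 had 7507, 10282 and 9522 against 1584, 259 and 679. MT-ND3 and MT-CO3, by contrast, overlapped between the methods. Nuclear genes of oxidative phosphorylation were split, 36 positive and 27 negative of 63. Cytosolic ribosomal protein genes were 17 positive and 45 negative of 62, with a median of -0.28, near the -0.22 of all genes. In 3 of the 62 every LCM value lay above every manual value, against 6.78% of all genes, and in 3 below, against 11.4%.

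Lists of stress genes were also described, and the part of handling in their values was not tested. Of 15 tested immediate early genes 9 were positive and 6 negative, with a median log2 fold change of 0.20, from -0.40 to 1.02 when 1 embryo was left out. ATF3, a stress-induced factor, had 2, 0 and 1 counts in LCM embryos and 869, 0 and 450 in manual embryos, and BTG1, an antiproliferative gene, 3822, 2040 and 6371 against 596, 737 and 922. EGR1 had 133 counts in LCM embryo 3, 80 in manual embryo 1 and 0 elsewhere.

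Of 19 chaperone genes 11 were positive and 8 negative (median 0.21). In 7 of the 19 every LCM value lay above every manual value, against 6.78% of all genes, and in 0 below, against 11.4%. The list's summed levels overlapped, at 24274.3, 18253.4 and 17425.1 CPM in LCM embryos and 33143.9, 21341.1 and 21328.5 CPM in manual embryos. HSPA4, a cochaperone, had 13396, 7925 and 9245 counts against 3211, 729 and 1508, with no overlap. edgeR called 0 of the 19, and DESeq2 called HSPA4 and HSF2 higher, against 1.43% of all genes. HMOX1, the oxidative stress enzyme heme oxygenase, had 172, 3 and 2015 against 21779, 424 and 4750. Of 28 hypoxia and glycolysis genes 15 were positive and 13 negative (median 0.51). In 5 of the 28 every LCM value lay above every manual value, against 6.78% of all genes, and in 3 below, against 11.4%. SLC2A3, a glucose transporter, had 1686, 100 and 1703 counts against 31842, 1908 and 3956, with no overlap.

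Matrix genes had 15 positive and 10 negative of 25 tested, with a median log2 fold change of 1.08. The median was -0.27 without LCM embryo 3 and 0.28 without LCM embryo 2, each over 25 genes. In 5 of the 25 every LCM value lay above every manual value, against 6.78% of all genes, and in 0 below, against 11.4%. NID2, a basement membrane nidogen, had 3233, 2191 and 3678 counts against 367, 97 and 208 (log2 fold change 3.72 ± 0.89), and LAMB1, a laminin chain, 3873, 3740 and 4944 against 2015, 95 and 173. NID1, the other nidogen, had 0, 20 and 45 against 6299, 117 and 0. Thus NID2 and LAMB1 were apart with LCM higher, and NID1 was led by manual embryo 1.

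The genes with the smallest p on the LCM side, among genes with a symbol, an average log2 CPM of at least 5 and non-overlapping groups, were MT-ND1, APOD, YBX1, MT-ND6, MKI67, EIF4G2, ANKRD11, EIF3A, DLL1 and NONO, and none passed the test (edgeR adjusted p from 0.101 to 0.159). Several act on RNA or translation. EIF4G2 and EIF3A are initiation factors, and YBX1 and NONO bind RNA. EIF4G2 had 63093, 65937 and 65576 counts against 29022, 14334 and 16210, or 2547 ± 586.5 CPM against 819 ± 109 (SD, n = 3 each). YBX1 had 23895, 29010 and 32565 counts against 8333, 1666 and 2925, or 1094 ± 105 CPM against 166 ± 93.8. NONO had 10439, 13733 and 18873 against 4044, 3266 and 2297.

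APOD, a secreted lipid-binding lipocalin (chromosome 9, 12153804 to 12156739), had 8523, 7186 and 17181 counts against 1567, 851 and 425, with a log2 fold change of 3.42 ± 0.59. ANKRD11, a chromatin regulator, had 3720, 5803 and 2767 against 436, 84 and 169, and EIF3A 11550, 8823 and 13475 against 2631, 676 and 297. For each of these the lowest LCM library stood above the highest manual library.

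**Figure D5:**
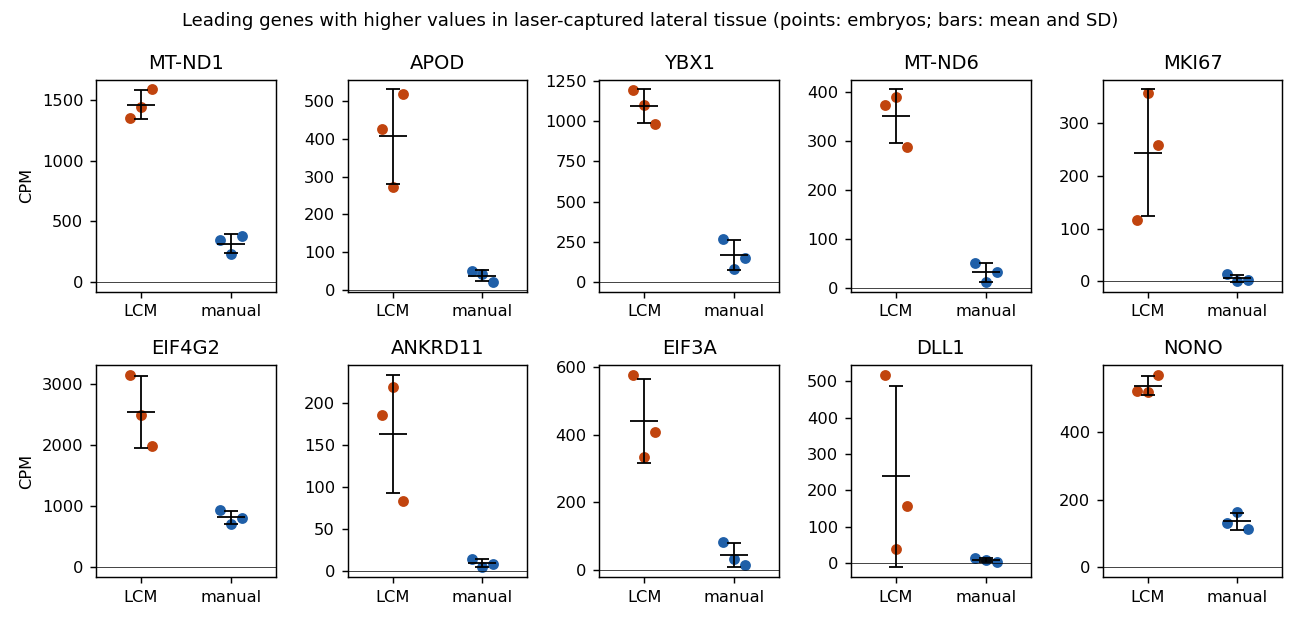
CPM of the 10 leading genes with higher values in LCM lateral tissue, 1 panel a gene, with a point for each embryo and bars for the mean and SD of 3 embryos. In every panel the LCM points lie above the manual points, and DLL1 and MKI67 have the widest spread among LCM embryos relative to their mean.

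Under the same conditions, the genes with the smallest p on the manual side were SLC7A11, GPR126, PLCXD1, CIDEA, CA5A, PLA2G2A, RBP4, OLFM4, LGALS2 and PPAR. None passed (edgeR adjusted p from 0.0605 to 0.101). Their LCM counts were 0 to 13 in every library. SLC7A11, the cystine and glutamate exchanger (chromosome 4, 28376868 to 28434696), had 7, 3 and 9 counts against 9204, 320 and 10917, and its log2 fold change was -10.17 ± 1.40. Without manual embryo 1 it was -10.05 ± 1.46 and SLC7A11 was called (edgeR adjusted p = 0.02). GPR126, an adhesion receptor, had 4, 4 and 3 against 9033, 703 and 1523. Manual embryos 1 and 3 were highest for both.

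For the other genes manual embryo 1 was far above the rest. CIDEA, a lipid droplet protein, had 1 count in each LCM library and 6106, 511 and 714 in manual libraries. PLA2G2A, a secreted phospholipase, had 1, 2 and 3 counts against 24222, 714 and 133, and OLFM4, a secreted glycoprotein known from the intestinal lining, 2, 5 and 5 against 30666, 505 and 196. LGALS2, a galectin, had 0, 1 and 0 counts against 8846, 354 and 86. CA5A, a mitochondrial carbonic anhydrase named here through RefSeq, had 2, 3 and 5 against 7175, 821 and 684.

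Node libraries of the same embryos show whether the difference between methods was also there in the neighbouring tissue. The interaction of method and tissue, with the embryo as a block, was called by edgeR in 0 of 9869 genes (0%), and 248 (2.51%) had an unadjusted p below 0.05. DESeq2 called 271 and limma voom 0. The LCM node library of embryo 2 held 185 counts of the W-linked gene ENSGALG00000005785, against 1 and 4 in the other LCM node libraries, 4219 in the node library of manual embryo 1 and 6 in those of manual embryos 2 and 3. Without that embryo edgeR called 0 genes too, and 297 had an unadjusted p below 0.05.

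GPR126 had an interaction of -6.87 ± 1.21 log2 (edgeR adjusted p = 0.361), the named gene with the smallest p. It was counted in LCM node tissue, at 2186, 358 and 1903, and in manual node tissue at 9953, 10552 and 2230, while the LCM lateral libraries held 3 or 4 counts. RBP4 had 6, 2280 and 8 counts in LCM node tissue and 30207, 3288 and 1041 in manual node tissue, so outside the LCM node library of embryo 2 it was near 0 in both LCM tissues. That library is the one with 185 W-linked counts, against 5 in the lateral library of the same embryo, and the part of these reads in its RBP4 and TTR counts was not tested. TTR had 0, 166 and 3 against 2004, 489 and 340 in node tissue, in the same order.

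DLL1 had 9448, 5840 and 6572 counts in LCM node libraries and 470, 57 and 122 in manual node libraries, an interaction of -0.89 ± 1.11. EVX1 had 2068, 1517 and 1552 against 255, 19 and 123, and CDXB 6304, 6673 and 7190 against 4173, 2377 and 3083. These genes thus had more counts in LCM than in manual libraries in node tissue as well as in lateral tissue, and no difference between the tissues passed the test. The 10 leading genes on the LCM side all had positive log2 fold changes in node tissue too. These ranged from 1.15 (MT-ND1) to 5.45 (ANKRD11) in edgeR.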

How the data were processed

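Per the labels' protocols, 1 to 7 ng of total RNA per sample went into SMARTer low RNA libraries, and Bowtie2 2.2.3 is named with no role in the submitters' processing notes. No label or header names the counter, annotation release, genome build or strand setting, so overlapping genes and near-identical copies (Z and W gene pairs, ribosomal proteins) are uncertain. The authors deposited raw read counts per Ensembl gene. A second deposited table holds signal values, the counts over a size factor for each library, and entered only an alternative test.

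The test on counts was edgeR's quasi-likelihood test (version 4.0.16, R 4.3.3; TMM, unpaired, 3 against 3 embryos, mean count of 10 or more, Benjamini-Hochberg, calls at adjusted p below 0.05). DESeq2 1.42.0, limma 3.58.1 voom, other filters, scalings, covariates and samples left out were alternatives. Tests were run on simulated counts with a smaller spread between embryos than these data have. That check therefore does not measure their power at the spread found here. The authors' symbols named 11420 genes and a RefSeq table, used for names only, 599 more. No sequence is printed, since no sequence file was used here.

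Genes named were, per direction, the 10 with the largest fold change among called genes with average log2 CPM of 5 or more and non-overlapping groups, filled by smallest p since none was called; up to 4 members of each list with the smallest p; and the first 4 markers of each tissue list. Other members were named after their values were seen, to complete a list. Some genes that the rule names are not reported here. The comparison, the members and the 23 lists were chosen with earlier results of these data known, so lists have no test. Replicates are separate embryos. Embryo numbers did not pair samples across methods, since different embryos went to each. Deviations from the group means correlated at 0.024, 0.020 and -0.029 between same-numbered embryos. Between embryos of different number they correlated at -0.040 to 0.022. With 3 embryos per method these correlations cannot show by themselves whether samples are paired. A bound for a gene at 0 uses a floor of 3 counts per library and covers counting error only.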

Additional observations from a re-analysis of the deposited data

How the results depend on the processing

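Genes called at adjusted p below 0.05 numbered 0 higher and 0 lower in LCM tissue in the main edgeR test. They numbered 141 and 420 with DESeq2, 4 and 44 with limma voom, 26 and 98 with no filter, 1 and 1 with all 12 libraries, 3 and 14 with stage as a covariate, and 1 and 14 with embryo number as a replicate block. They ranged from 0 to 24 higher and from 0 to 36 lower when 1 embryo was left out. Counts at unadjusted p below 0.05 were 272 and 794, against 544 higher with DESeq2, 501 lower with filterByExpr and 456 lower with the replicate block, and ranged over 125 to 487 higher and 403 to 909 lower without 1 embryo. For the interaction with node tissue the counts were 0 adjusted and 248 unadjusted, against 271 and 1159 with DESeq2, 433 unadjusted with voom, 601 with no replicate block, and 0 adjusted and 137 to 589 unadjusted without 1 embryo. The median log2 fold change of endoderm markers, -8.92, was -3.72 with voom, -3.32 on log2(normalized value + 1), -4.003 with no filter, -4.10 with filterByExpr, -4.84 with stage, -5.32 with the replicate block, and -9.86 to -1.51 without 1 embryo. For intermediate and lateral plate mesoderm, -8.65, these were -3.54, -2.94, -4.86 with no filter, -4.84 with stage, -5.32 with the block, and -9.58 to 1.88. For W-linked genes, -7.95, they were -14.74 with DESeq2, -2.71 with voom, -2.32, -4.46 with no filter, -3.82 with filterByExpr, -2.37 with stage, -2.52 with the block, and -8.56 to 1.28. Neural crest markers, -0.75, gave 0.52 with stage, 0.47 with the block, and -0.73 to 1.26. Surface ectoderm, 0.04, gave -0.87 with the block and -0.71 to 0.23. Blood and endothelium, 3.23, gave -0.26 with the block and -1.275 to 5.301 without 1 embryo. Germ cell markers, -0.49, ranged over -3.75 to 0.12, and chaperones, 0.21, over 0.0211 to 0.746. Signs turned for 3 single genes: CDH6 gave 0.48 and HBAD -0.26 with the replicate block, and W-linked ENSGALG00000014184 ranged over -6.653 to 1.68 without 1 embryo, positive without manual embryo 1. The cause was not tested. List medians are over the members that pass each filter, so their genes differ between settings: without manual embryo 1 they are 12 endoderm, 6 intermediate and lateral plate and 2 W-linked genes, against 19, 9 and 6. The median of all genes moved from -0.22 to -0.72 with voom. Counts of 0 and few embryos limit all folds of low genes.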

Other observations

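Genes of amino acid supply and transfer RNA charging were listed after their values had been seen, so their counts support nothing by themselves. Of 30 tested, 24 had a negative log2 fold change (LCM minus manual), with a median of -1.29, and in 12 all LCM values lay below all manual values, against 11.4% of all genes. PSPH, which completes serine synthesis, had 566, 657 and 309 counts in LCM embryos and 8316, 1191 and 24953 in manual embryos. CBS, an enzyme of the route from homocysteine to cysteine, had 394, 134 and 278 against 11293, 1760 and 4585. PSAT1 had 1094, 933 and 5283 against 22375, 4840 and 37649, and ASNS, asparagine synthetase, 5049, 7396 and 4610 against 50795, 6730 and 53975. In all 4 genes manual embryos 1 and 3 were highest. ATF4, the factor known to induce such genes, had 1977, 3833 and 4279 counts against 3828, 376 and 1120, and EPRS, a transfer RNA synthetase, 12845, 9819 and 9871 against 9987, 1268 and 928, so neither followed that order. None passed edgeR's test.

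Macrophage and granulocyte genes, also listed after their values had been seen, mostly had negative log2 fold changes. These were 7 of 8 tested, with a median of -9.79, and their counts support nothing by themselves. In 3 of the 8 all LCM values lay below all manual values, against 11.4% of all genes, and in 0 above, against 6.78%. LY86 had 1269, 157 and 1053 counts in manual embryos and 0 in LCM embryos. PTPN6 had 7686, 127 and 471 against 0, 0 and 10, and S100A12 had 17024, 90 and 1 against 0, 2 and 0. MPEG1 had 9, 0 and 0 counts against 0, 48 and 116, with LCM embryos 2 and 3 highest, and IRF8 had 6300, 199 and 302 against 0, 1 and 947. PTPRC, CSF1R and ITGB2 had 0 counts in all 6 libraries.

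Of 55 genes with 1000 or more counts in manual lateral embryo 1 and at most 3 in manual lateral embryos 2 and 3, the LCM lateral libraries held 0.857% to 1.54% of the summed counts of manual embryo 1, and manual embryos 2 and 3 held 0.0121% to 0.0125%, the latter set by the choice of genes.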
